A study of Mus musculus with 4 samples.

Results

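The difference that pituitary removal made to the night change of each gene was measured in the mouse suprachiasmatic nucleus (SCN). The quantity is the night change in hypophysectomized mice minus the night change in control mice, on the log2 scale, where a night change is the value at Zeitgeber time (ZT) 14 minus that at ZT2. A positive value means that the night change was more positive after surgery, and a negative value that it was more negative. It was computed for 22180 genes, and the 11090 genes whose highest value on the 4 arrays reached a log2 level of 6.02, the median of that highest value over all genes, are described here.

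The SCN, a small paired nucleus of the hypothalamus, is the body's central circadian pacemaker. In its cells CLOCK and BMAL1 (Arntl) activate genes through E-boxes, PER and CRY proteins repress them, and REV-ERB and ROR proteins act on Arntl. Light and firing act on this loop through cyclic AMP and calcium, which induce immediate early genes by way of cAMP response elements. The pituitary gland drives the adrenal cortex, the thyroid, the gonads and growth hormone release, so hypophysectomy removes, among other signals, most of the daily surge of circulating glucocorticoid, which in mice comes near the onset of the dark phase.

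The 4 groups were non-HPX mice, which kept the pituitary, at ZT2 and at ZT14, and HPX mice, which were hypophysectomized, at ZT2 and at ZT14. All were kept on 12 h of light and 12 h of dark, so that ZT2 lies early in the light and ZT14 early in the dark. SCN tissue was cut out by laser microdissection, pooled from 10 animals at each time and extracted with TRIzol, and whether that number holds within each surgical state is not stated. The state is labelled as a genotype, although it is a surgery, and the strain, age, sex, any sham operation of the controls and the time since surgery are not stated either. Each group was measured on 1 Affymetrix array.

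With 1 array per group no array repeats a condition, and the interaction uses up the design. The values below are therefore differences between 4 pools with no standard deviation, no test and no replicate check, and a fold was used only to count genes. The words rise and fall stand for a night difference of at least 1.5-fold (0.585 on the log2 scale) in 1 surgical state, without a test.

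The tissue carried the marks of the SCN, and also genes of other hypothalamic neurons. All 12 SCN identity genes that were looked for passed the floor, among them the transcription factors Lhx1, Six6 and Rorb. By its definition 11090 of the 22180 genes pass the floor. Of 19 measured marker genes of other hypothalamic neurons, 11 passed it, with the oxytocin gene Oxt at 10.80 at ZT2 in non-HPX. Of the 7 pituitary hormone genes and the 2 measured blood genes, 0 passed it. Fewer cells of a type and less RNA per cell cannot be told apart in such pools.

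Few genes had a large difference between their night changes. At 2-fold or more, 5 of the 11090 genes (0.0451%) were more positive in HPX and 7 (0.0631%) more negative. At 1.5-fold or more the numbers were 220 (1.98%) and 106 (0.956%). Over all 11090 genes the difference had a median of 0.07 and a standard deviation across genes of 0.25. The central 95% of genes lay between -0.45 and 0.56 on the log2 scale.

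The strongest day and night differences of the tissue persisted. Prok2, a secreted peptide that carries SCN output, had log2 levels of 9.17 at ZT2 and 5.45 at ZT14 in non-HPX, and of 9.08 and 5.61 in HPX. Rasl11b, which encodes a small GTPase, stood at 9.34 and 6.13 in non-HPX and at 9.16 and 6.38 in HPX. Both genes were low at night in both states, and their night changes differed by only 0.25 and 0.43.

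**Figure D1:**
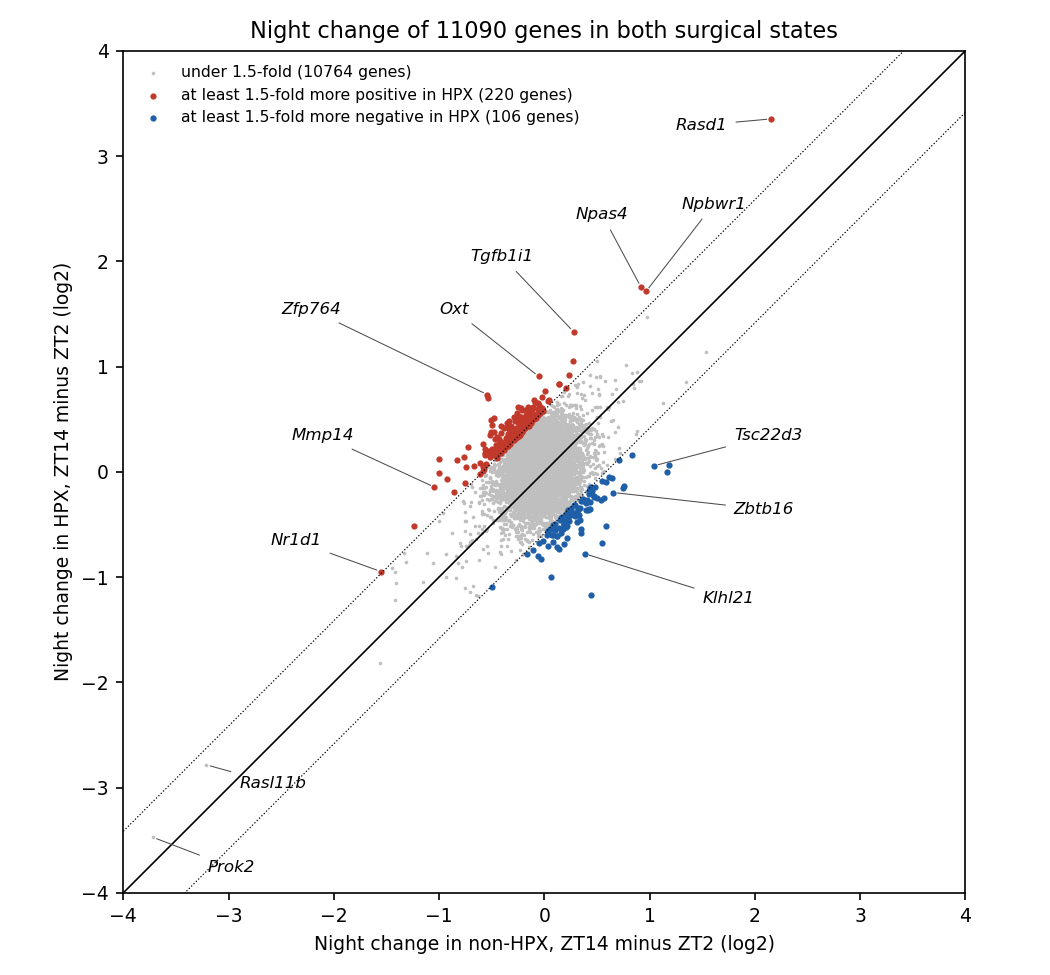
Night change (ZT14 minus ZT2, log2) of each of the 11090 genes in non-HPX (horizontal axis) against HPX (vertical axis); the solid line marks equal night changes and the dotted lines a difference of 1.5-fold. The 220 red genes and 106 blue genes lie beyond the dotted lines, most of them close to 0 on both axes, while Prok2 and Rasl11b lie near the solid line.

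An interaction could take several forms, and the least dramatic form was the most common. Of the 326 genes at 1.5-fold or more, 244 (74.8%) had neither a rise nor a fall of 1.5-fold in either state, so that small changes of opposite sign added up to the difference. Of these 244, 172 were more positive in HPX and 72 more negative. A rise gained after surgery was seen in 29 genes, and a fall gained after surgery in 22. A rise present in non-HPX was lost in 12 genes, and a fall was lost in 15. A rise was enlarged in 3 genes, Rasd1, Npas4 and Npbwr1, a fall was reduced in 1 gene, Nr1d1, and a rise or fall of at least 1.5-fold was reversed in 0 genes. These classes depend on where a night change starts to count, since at 1.3-fold the number with neither a rise nor a fall is 60 and the number of gained rises 104.

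Glucocorticoid-induced genes included 2 of the 12 lost rises, those of Tsc22d3 and Zbtb16. Of the 22 genes listed for this response, 16 passed the floor. At 1.5-fold 3 of the 16 (18.8%) were more negative in HPX, against 0.956% of all genes, and 1 (6.25%) more positive, against 1.98%. Of the 3, Sult1a1 passed the floor only through its high non-HPX night array, a value that helps make its difference negative. The list was also chosen with earlier results of these data known. The median of the 16 was -0.06 against 0.07 for all genes.

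Tsc22d3 encodes GILZ, a leucine zipper protein through which glucocorticoids act on inflammation. Its log2 levels were 6.13 at ZT2 and 7.17 at ZT14 in non-HPX, and 5.90 and 5.96 in HPX. The non-HPX night array stood above the other 3, and the 2.06-fold night rise of non-HPX was 1.04-fold in HPX. The difference of the night changes was -0.99. Zbtb16 encodes PLZF, a zinc finger repressor induced by steroid hormones. It stood at 6.43 and 7.08 in non-HPX and at 6.29 and 6.09 in HPX, again with the non-HPX night array above the rest, and its night changes differed by -0.85.

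Sult1a1, a phenol sulfotransferase, showed the same shape at a lower level. Its log2 levels were 5.86, 6.27, 5.69 and 5.33 in the order non-HPX ZT2, non-HPX ZT14, HPX ZT2 and HPX ZT14, a difference of -0.78. It passed the floor only through the non-HPX night array, where it was high. Tsc22d3, Zbtb16 and Sult1a1 were chosen for description after their values were seen.

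Other members of the list followed less or not at all. Mt2, a metal-binding metallothionein, had a difference of -0.44, and Ddit4, an inhibitor of mTOR signalling, one of -0.35. Klf9, a Krüppel-like factor, was lower in HPX at both times, at 7.49 against 8.21 at ZT2 and 7.40 against 8.25 at ZT14, so its night changes differed by only -0.13. Sgk1, a kinase of ion transport, differed by -0.04. Fkbp5, a co-chaperone of the glucocorticoid receptor, stayed just under the floor, with a highest log2 level of 6.02 at night in non-HPX and 5.74 at night in HPX. The glucocorticoid receptor gene itself, Nr3c1, had a difference of 0.10.

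Rasd1 went the other way. It encodes Dexras1, a Ras-like G protein first known as dexamethasone-induced and active in the response of the SCN to light. Its log2 levels were 8.17 at ZT2 and 10.33 at ZT14 in non-HPX, and 7.24 and 10.59 in HPX. The lowest of the 4 was the HPX day array, 0.94 below its non-HPX counterpart, while the night arrays were 0.26 apart. Night exceeded day 4.45-fold in non-HPX but 10.2-fold after surgery, and the difference of 1.20 (2.30-fold) was the third most positive of all 11090 genes.

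**Figure D2:**
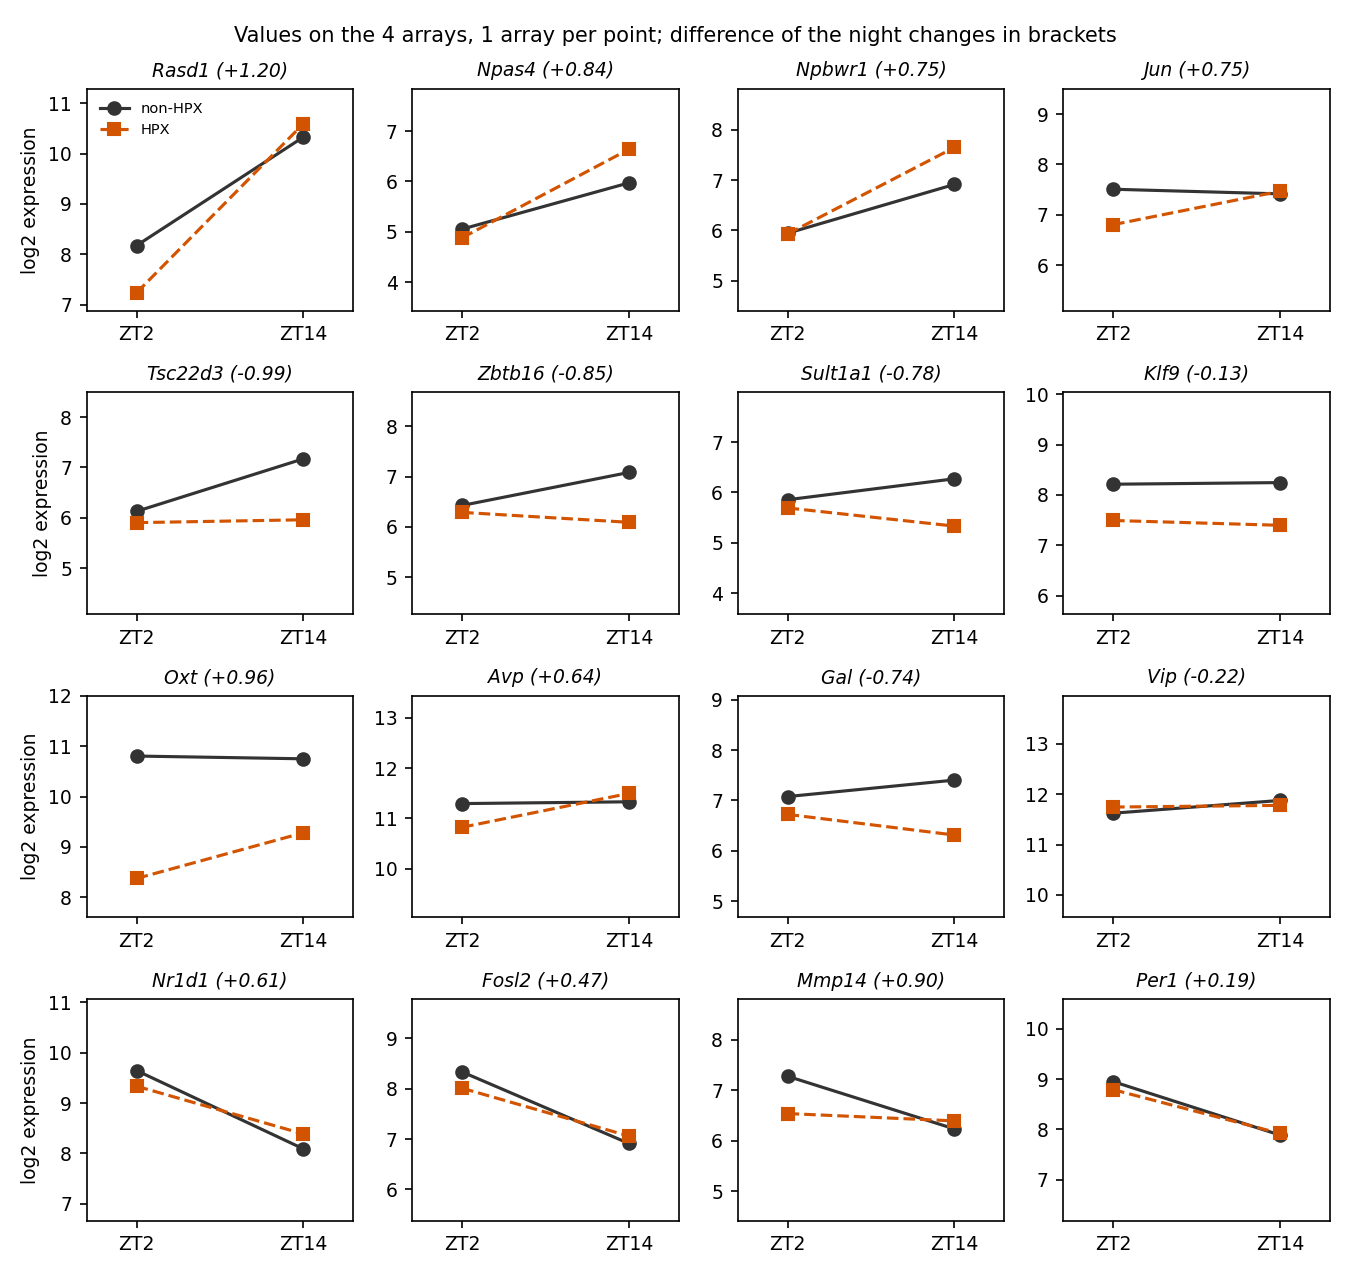
Log2 expression of 16 genes at ZT2 and ZT14 in non-HPX (dark circles, solid line) and HPX (orange squares, dashed line), 1 array per point, with the difference of the night changes beside each name; every panel spans the same height. Tsc22d3 and Zbtb16 rise along the non-HPX line and not by more than 1.04-fold along the HPX line, Rasd1 and Npas4 rise more steeply along the HPX line, and Oxt is lower on both HPX arrays.

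Of the activity-induced genes, which neurons switch on after firing or light, 19 passed the floor. At 1.5-fold 2 of the 19 (10.5%) were more positive in HPX, against 1.98% of all genes. At the same fold 0 were more negative, against 0.956%. Of the 2, Npas4 passed the floor only through its high HPX night array, a value that helps make its difference positive. The median of the 19 was 0.19, against 0.07 for all genes, and without a floor it was 0.12. Of the 9 members under the floor, 5 had negative and 4 positive differences, and 1 was more negative at 1.5-fold. Npas4, a transcription factor induced by calcium entry, had log2 levels of 5.05 and 5.97 in non-HPX and of 4.88 and 6.64 in HPX. Its HPX night array was the highest and the only one above the floor, and its night rise of 1.89-fold in non-HPX compared with 3.38-fold after surgery, a difference of 0.84.

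Jun, a subunit of AP-1, differed by 0.75. It stood at 7.51 and 7.42 in non-HPX and at 6.80 and 7.47 in HPX, so the HPX day array alone was low. Nr4a1, an orphan nuclear receptor, had a fall of 0.70 in non-HPX and a night change of -0.12 in HPX, and the difference of 0.58 lay just under 1.5-fold.

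The other genes of this list had smaller differences, on both sides of 0. Fos had log2 levels of 6.63 and 6.27 in non-HPX and of 6.63 and 6.17 in HPX, a difference of -0.10. Egr1, a zinc finger factor, differed by -0.18, and Dusp4, a phosphatase of MAP kinases, by -0.26. Sik1, a kinase that limits the response of the clock to light, differed by 0.19. Arc, Fosl2 and Jund differed by 0.495, 0.47 and 0.47, and Gem and Btg2 by -0.40 and -0.29. Of the 19 genes, 12 were positive and 7 negative, against 61.9% positive among all genes. Gadd45g, a stress sensor, and Klf10, a Krüppel-like factor, lay outside the list and had gained rises, with differences of 0.78 and 0.76. Klf10 stood at 5.81 and 5.81 in non-HPX and at 5.40 and 6.17 in HPX. It passed the floor only through the HPX night array, a value that helps make its rise. Both genes were chosen after their values were seen.

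Among 21 core clock genes that passed the floor, 1 (4.76%) was more positive in HPX at 1.5-fold, against 1.98% of all genes. Nr1d1 encodes REV-ERB-alpha, a repressor of Arntl. Its log2 levels were 9.65 at ZT2 and 8.09 at ZT14 in non-HPX, and 9.34 and 8.39 in HPX. Day exceeded night 2.94-fold in non-HPX but only 1.93-fold after surgery, and both HPX values lay between those of non-HPX. The difference was 0.61, and 0.54 with a cyclic loess normalization, which is below 1.5-fold.

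Its partner genes in the loop had smaller differences. Arntl had night changes of 0.52 without and 0.91 with surgery, a difference of 0.39. Cry2, a repressor of the loop, had night changes of -0.17 and 0.33. Per1, a repressor that also responds to light and glucocorticoids, had night changes of -1.06 without and -0.87 with surgery. The E-box output gene Dbp, the repressor Bhlhe41 and the genes Per3 and Cry1 had differences of 0.04, -0.04, 0.02 and -0.05. Nr1d2, the paralogue of Nr1d1, differed by -0.15. The 21 genes had a median of 0.12 and ranged from -0.38 to 0.61. Of them 15 were positive and 6 negative, against 61.9% positive among all genes.

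The SCN identity list had a median of 0.27, against 0.07 for all genes. Of its 12 genes, 1 (8.33%), namely Rasd1, was more positive at 1.5-fold, against 1.98% of all genes. Rgs16, a regulator of G protein signalling that gates cyclic AMP in the dorsal SCN, had log2 levels of 11.17 and 9.72 in non-HPX and of 11.03 and 10.11 in HPX, a smaller night fall in HPX and a difference of 0.53. The transcription factors Lhx1 and Zfhx3 differed by 0.36 and 0.27. Vipr2, the receptor of vasoactive intestinal peptide, differed by -0.14.

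Neuropeptide genes of the SCN and its surroundings gave opposite results. Avp encodes vasopressin, an output peptide of the SCN shell that magnocellular neurons near the nucleus also make. Its log2 levels were 11.29 and 11.33 in non-HPX and 10.82 and 11.50 in HPX; the HPX day array was the lowest, and the difference was 0.64. Oxt encodes oxytocin, made by magnocellular and parvocellular neurons outside the SCN. It stood at 10.80 and 10.75 in non-HPX and at 8.37 and 9.28 in HPX, so both HPX arrays were below both non-HPX arrays. The night change of Oxt was -0.05 in non-HPX and 0.91 in HPX, a difference of 0.96.

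Gal encodes galanin, a peptide of several hypothalamic neuron types. It had log2 levels of 7.08 and 7.40 in non-HPX and of 6.72 and 6.31 in HPX, with the HPX night array lowest and a difference of -0.74. Other peptides of the SCN had smaller differences, with Vip at -0.22, Grp at -0.25, Nms at -0.16, Sst at 0.01 and Penk at 0.50. Npbwr1, a receptor of neuropeptides B and W, was chosen after its values were seen. It stood at 5.94 and 6.91 in non-HPX and at 5.93 and 7.65 in HPX, equal by day and higher in HPX at night, a difference of 0.75.

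The summed linear level of 11 marker genes of other hypothalamic neurons, which include Oxt and Gal, was 3372 and 3337 in non-HPX and 1606 and 1897 in HPX. Without Oxt and Gal, the sum over the other 9 genes was 1448 and 1446 in non-HPX and 1169 and 1196 in HPX. It was lower in HPX at both times, while its night changes in HPX and non-HPX differed by only 0.03 on the log2 scale.

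Oxt and Avp are neighbouring genes that face each other on chromosome 2, and both were more positive in HPX. Their promoters are shown because the pair lies together, with those of Npas4 and Tsc22d3 as an enlarged and a lost rise. Each runs from 250 bases before to 50 after the start site of the RefSeq model, on build GRCm38.p6, written in the direction of the gene. Capitals mark matches, on either strand, to the E-box CACGTG, the cAMP response element TGACGTCA and its short form TGACG, the ROR and REV-ERB core site AGGTCA, and the glucocorticoid receptor core site AGAACA. The short form TGACG lies within the full cAMP response element, so each full site also counts as a short one. Oxt lies at chr2:130575919-130576218 on the plus strand, Avp at chr2:130582539-130582838 on the minus strand, Npas4 at chr19:4989922-4990221 on the minus strand, and the start of Tsc22d3 shown at chrX:140600473-140600772 on the minus strand.
Oxt: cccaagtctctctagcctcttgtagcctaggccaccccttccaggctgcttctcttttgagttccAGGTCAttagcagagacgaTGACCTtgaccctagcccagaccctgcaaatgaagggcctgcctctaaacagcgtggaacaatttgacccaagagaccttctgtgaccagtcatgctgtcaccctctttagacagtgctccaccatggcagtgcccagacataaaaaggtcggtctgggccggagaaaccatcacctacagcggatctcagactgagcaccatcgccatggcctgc
Avp: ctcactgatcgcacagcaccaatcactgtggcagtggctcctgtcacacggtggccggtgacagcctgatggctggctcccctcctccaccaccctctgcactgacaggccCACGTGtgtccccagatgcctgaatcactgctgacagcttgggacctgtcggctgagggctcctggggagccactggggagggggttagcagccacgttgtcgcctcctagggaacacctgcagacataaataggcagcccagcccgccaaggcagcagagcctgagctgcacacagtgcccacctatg
Npas4: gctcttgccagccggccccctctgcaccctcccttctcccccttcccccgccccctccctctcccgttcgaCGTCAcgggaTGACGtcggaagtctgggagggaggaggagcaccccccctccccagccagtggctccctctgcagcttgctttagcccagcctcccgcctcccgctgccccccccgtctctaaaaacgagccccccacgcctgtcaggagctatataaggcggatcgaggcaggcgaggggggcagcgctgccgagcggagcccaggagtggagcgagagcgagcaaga
Tsc22d3: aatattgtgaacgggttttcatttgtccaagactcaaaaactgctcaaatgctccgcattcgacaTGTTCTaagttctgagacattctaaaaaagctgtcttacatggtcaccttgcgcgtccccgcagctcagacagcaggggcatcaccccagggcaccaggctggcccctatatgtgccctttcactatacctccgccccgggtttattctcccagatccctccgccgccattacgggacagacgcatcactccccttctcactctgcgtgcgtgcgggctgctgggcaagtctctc

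Oxt held the ROR and REV-ERB core site at -185 and -166 from its start, and Avp an E-box at -139. Npas4 held short cAMP response elements at -179 and -169, and the start of Tsc22d3 shown a glucocorticoid receptor core site at -185. Of the other 2 starts of Tsc22d3 in the table, 1 held none of these motifs and the other only the short cAMP response element, at -224. The start shown was chosen for its match. The promoters of Jun and Nr1d1, looked at together with these, held none of the motifs and are not shown. Such matches are common. The glucocorticoid receptor core site stood in 12.0% of the 11177 promoters of the genes above the floor, and the short cAMP response element in 31.1%.

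Motif shares were also taken over the genes at 1.5-fold or more. The E-box stood in 25 of 211 promoters (11.8%) of genes more positive in HPX and in 7 of 77 (9.09%) of those more negative, against 9.84% in the promoters of all genes above the floor. The glucocorticoid receptor core site stood in 11.4% and 14.3%, and the ROR and REV-ERB core site in 13.7% and 14.3% against 11.6%. The full cAMP response element stood in 12 of the 211 promoters (5.69%) and in 2 of the 77 (2.60%), against 3.08%. In all these shares a gene with several start sites counts once per start. The 12 promoters belong to fewer genes, namely Ccdc130, Celf3, Clstn2, Crkl, Emc10, Ing4, Mlf2, Mycbpap and Ttc16. Its short form stood in 27.0% and 24.7% against 31.1%. Shares of all 32851 promoters in the table were 7.15% for the E-box, 1.79% for the full cAMP response element, 20.8% for its short form, 16.3% for the ROR and REV-ERB core site and 19.0% for the glucocorticoid receptor core site.

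Hormone receptors and growth factor genes included a few larger values. Ghsr, the receptor of ghrelin, had log2 levels of 6.87 and 6.58 in non-HPX and of 6.64 and 6.95 in HPX, a difference of 0.59, which became 0.57 under cyclic loess and so under 1.5-fold. Esr1, the oestrogen receptor alpha, had levels of 6.06 and 5.65 in non-HPX and of 5.64 and 5.92 in HPX, a difference of 0.69 with 3 of 4 values under the floor. Of 17 genes of growth hormone and IGF signalling, 7 passed the floor, with a median of 0.40 and with Igf1r and Igfbp5 at 0.51 and 0.48. That median was 0.15 with the floor set on the mean level and -0.03 with none. The 7 genes of thyroid hormone response had a median of -0.06. Aldh1a1, an enzyme of retinoic acid synthesis, was lower in HPX at both times and differed by -0.41.

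Protein folding and synaptic genes had medians above that of all genes without reaching the fold. Calr, a chaperone of the endoplasmic reticulum, stood at 10.33 and 10.28 in non-HPX and at 9.98 and 10.50 in HPX, a difference of 0.58, and the 11 genes of the unfolded protein response had a median of 0.25. Hsph1, a cytosolic heat shock protein, differed by 0.56. The 18 genes of synaptic vesicle release also had a median of 0.25, with Rab3a, a vesicle GTPase, at 0.47. In these lists 0 genes passed 1.5-fold. Gad1, which makes the SCN transmitter GABA, differed by 0.44, and the pacemaker channel gene Hcn3 by 0.55.

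Channel genes as groups lay close to all genes. The 21 potassium channel genes had a median of 0.08 and the 23 calcium, sodium and pacemaker channel genes one of 0.12. Kcnd1, a subunit of the A-type potassium current, had the largest difference of the potassium list, -0.52. The 24 genes of GABA and glutamate signalling had a median of 0.11, the 13 of cholesterol synthesis one of 0.12 with Lss at 0.35, and the 26 of cyclic AMP signalling one of 0.19.

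In the interferon response all 5 genes that passed the floor had a negative difference, as had 4225 of all 11090 genes. Their median was -0.17, against 0.07 for all genes, and 0 were more negative at 1.5-fold, against 0.956%. The other 6 genes measured lay under the floor and had negative differences too, with Irf7 at -1.05 and Ifit2 at -0.85. How many of all genes under the floor were negative was not counted. Without a floor the median of the list was -0.39, against 0.01 for all genes. Ifit1, an interferon-induced antiviral protein, had log2 levels of 5.72 and 5.51 in non-HPX and of 6.53 and 5.76 in HPX. Only its HPX day array was above the floor, a value that helps make its difference of -0.57 negative. Irf9, part of the interferon signalling complex, differed by -0.43, with levels of 6.42, 6.37, 6.83 and 6.35 in the order given for Sult1a1.

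**Figure D3:**
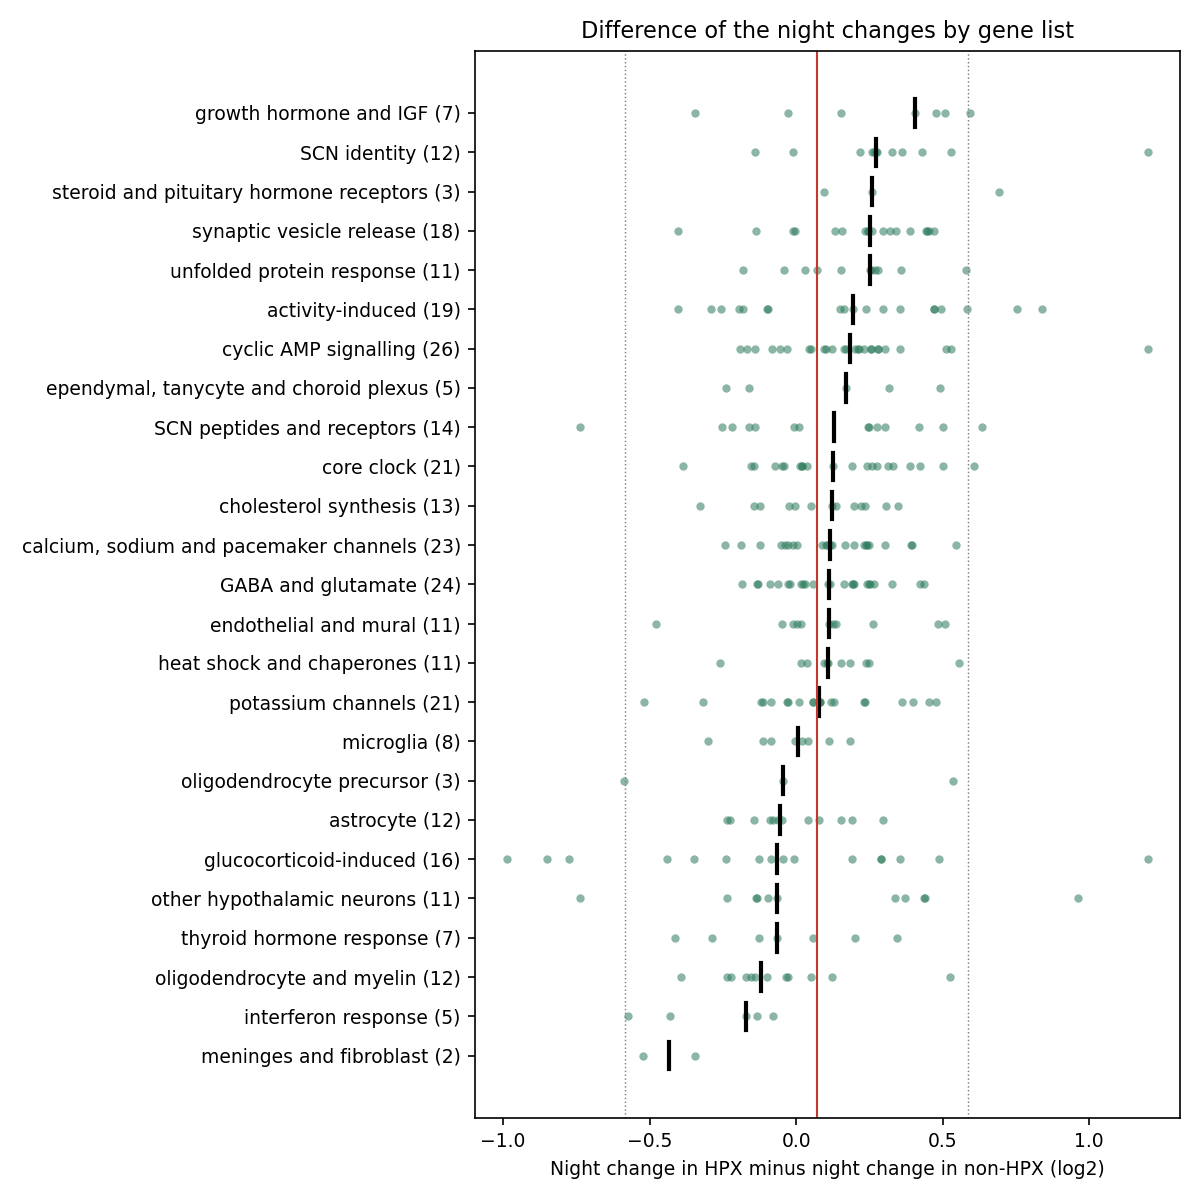
Difference of the night changes (HPX minus non-HPX, log2) for every gene above the floor in 25 gene and cell type lists, with the number of genes in brackets; bars mark list medians, the red line the median of all 11090 genes (0.07) and dotted lines 1.5-fold. The list medians lie between -0.43 (meninges and fibroblast, 2 genes) and 0.40 (growth hormone and IGF), and few members lie beyond the dotted lines.

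Medians of the cell type lists lay on both sides of the 0.07 of all genes. They were -0.05 for 12 astrocyte genes, -0.12 for 12 oligodendrocyte and myelin genes, 0.11 for 11 endothelial and mural genes, 0.17 for 5 ependymal, tanycyte and choroid plexus genes (0.00 with the floor set on the mean level) and 0.01 for 8 microglial genes, which under cyclic loess became -0.04. Single members were wider, with Olig2 at 0.52, Flt1 at 0.51, Clic6 at 0.49, Sox9 at 0.30 and Ctss at -0.30. Cspg4, which encodes the NG2 proteoglycan of oligodendrocyte precursors, differed by -0.59, and by -0.56 under cyclic loess, while its fellow marker Gpr17 differed by 0.54. Of the 8 meninges and fibroblast genes, 2 passed the floor, and their median of -0.43 was the lowest of any list. Of these, Dcn, a fibroblast proteoglycan, differed by -0.52 and Igf2 by -0.35. The part of cell composition in the values above was not tested.

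Outside the lists, Tgfb1i1, which encodes Hic-5, a focal adhesion protein and coactivator of steroid receptors, had a gained rise. Its log2 levels were 6.39 and 6.67 in non-HPX and 6.09 and 7.42 in HPX, all above the floor, with the HPX night array highest and a difference of 1.05. It was the last gene inside 2-fold on the positive side, and 9330159M07Rik (0.999), Mir181b-1 (0.99) and Ccdc65 (0.99) lay just outside. Zfp764, a KRAB zinc finger gene, had the most positive difference, 1.28, from levels of 6.51 and 5.96 in non-HPX and of 5.54 and 6.27 in HPX. Zinc finger genes have close relatives, so the copy that was measured is uncertain.

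On the negative side, Klhl21, an adaptor of a ubiquitin ligase that acts in cell division, stood at 5.72 and 6.11 in non-HPX and at 6.22 and 5.44 in HPX, a difference of -1.17. Ctla2a, a cysteine protease inhibitor with a near copy, Ctla2b, stood at 5.65, 6.23, 6.20 and 5.68 in the same order, a difference of -1.10. Values of both genes crossed in opposite directions within a narrow range around the floor.

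Among the 15 lost falls was that of Mmp14, a membrane-bound matrix metalloproteinase chosen after its values were seen. It stood at 7.28 and 6.23 in non-HPX and at 6.54 and 6.39 in HPX, so the non-HPX day array stood above the other 3, and its 2.06-fold fall was 1.11-fold in HPX. Sesn2, a stress-induced regulator of mTOR, and Rrad, a Ras-like inhibitor of calcium channels, lost falls with differences of 0.79 and 0.66. Gained falls included Cntn5, a neural adhesion molecule, Il1rapl1, a synaptic adhesion molecule, and Sgcz, a sarcoglycan, at -0.84, -0.75 and -0.75. In these 3 genes the HPX day array was the highest and the HPX night array the lowest, and they too were chosen after their values were seen.

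The other 7 of the 12 genes at 2-fold were 4 predicted genes and 3 microRNA genes. Gm12238 had the most negative value, -1.61 (3.05-fold), from log2 levels of 6.18 and 6.62 in non-HPX and of 6.92 and 5.75 in HPX. Gm8465 differed by -1.22, Gm20783 by 1.24 and 4933407K13Rik by 1.12. Of the 106 genes more negative in HPX at 1.5-fold, 44 (41.5%) were predicted, microRNA, small nucleolar RNA or olfactory receptor genes, as were 15 of the 220 more positive (6.82%) and 7.44% of all genes above the floor. Of 64 small nucleolar and Cajal body RNA genes, 6 (9.38%) were more negative at 1.5-fold, against 0.956% of all genes. More positive were 0, against 1.98%, and the median was -0.06. The 64 cytosolic ribosomal protein genes had a median of -0.11, with 1 (1.56%) more negative at 1.5-fold. Of these 64, 46 were negative, as were 4225 of all 11090 genes. The 79 respiratory chain genes had a median of -0.04, with 0 at 1.5-fold.

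MicroRNA genes were spread widely in both directions. Of 140, 13 (9.29%) were more negative at 1.5-fold and 6 (4.29%) more positive, against 0.956% and 1.98% of all genes, and their median was -0.13. Mir297b, Mir669m-1 and Mir181b-1, counted here, each passed the floor through only 1 array. These were the non-HPX night, HPX day and non-HPX day arrays, whose high values help make the differences, so the floor adds to these shares. The probes of such arrays may read precursor RNA, so the values are not levels of the mature microRNA. Mature sequences from RefSeq (GRCm38.p6) are shown for Mir194-2 and Mir1839, which passed 2-fold, for Mir181b-1 just outside it, and for the genes that share a mature sequence or a seed. The seed, bases 2 to 8, is given in capitals. Of the 19 microRNA genes at 1.5-fold, 14 had an entry.
miR-194-5p (Mir194-2 and Mir194-1): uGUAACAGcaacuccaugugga
miR-1839-5p (Mir1839): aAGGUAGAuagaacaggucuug
miR-181b-5p (Mir181b-1): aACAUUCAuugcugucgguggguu
miR-1943-5p (Mir1943): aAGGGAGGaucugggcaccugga
miR-149-3p (Mir149): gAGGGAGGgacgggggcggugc

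Mir194-2 and Mir194-1, which lie on chromosomes 19 and 1, yield the same miR-194-5p, and both lost a night rise. Mir194-2 had log2 levels of 5.69 and 6.88 in non-HPX and of 6.72 and 6.79 in HPX, with the non-HPX day array alone low and a difference of -1.12. Mir194-1 stood at 5.92, 6.63, 6.25 and 6.36, with the same array lowest and a difference of -0.60. Mir1943 and Mir149 share the seed AGGGAGG and differed by -0.89 and -0.63.

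Mir1839 had a gained fall, from 6.08 to 5.08 in HPX against 5.99 and 6.06 in non-HPX, a difference of -1.07. Mir297b stood at 5.38 and 6.55 in non-HPX and at 5.92 on both HPX arrays, a difference of -1.17, and belongs to a family of near-identical copies. Mir181b-1 had a lost fall, from 6.10 to 5.10 in non-HPX against 5.62 and 5.61 in HPX. Of the 6 microRNA genes more positive in HPX, Mir494, Mir154, Mir541 and Mir3070a lie on chromosome 12, with differences from 0.64 to 0.77. Dlk1, an imprinted gene also on chromosome 12, differed by 0.62. These 5 genes were grouped after their values were seen. The group leaves out DQ267102, whose probeset number lies between those of Mir3070a and Mir494. It went the other way, with a difference of -0.71. How many of the 140 microRNA genes lie on chromosome 12 was not counted, so their number there has nothing to be set against.

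For each gene, the array that stood apart was taken as the one whose removal leaves the smallest range among the other 3. The HPX day array stood apart in 130 of the 326 genes (39.9%), and in 32.2% of all 11090. The sign of a difference fixes on which side each array can stand apart, so the sides were compared within 1 sign. The HPX day array was the low one in 94 of the 220 genes more positive in HPX (42.7%), against 36.6% of all 6862 genes with a positive difference. Jun, Avp, Oxt and Rasd1 belonged to these 94. For the 106 genes more negative in HPX, the HPX day array was the high one in 36 (34.0%, against 25.2% of all 4225 genes with a negative difference). The HPX night array was the low one in 35 (33.0% against 33.7%). The non-HPX night array was the high one in 13, Tsc22d3, Zbtb16 and Sult1a1 among them. That was 12.3%, a smaller share than the 22.9% of all genes with a negative difference.

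**Figure D4:**
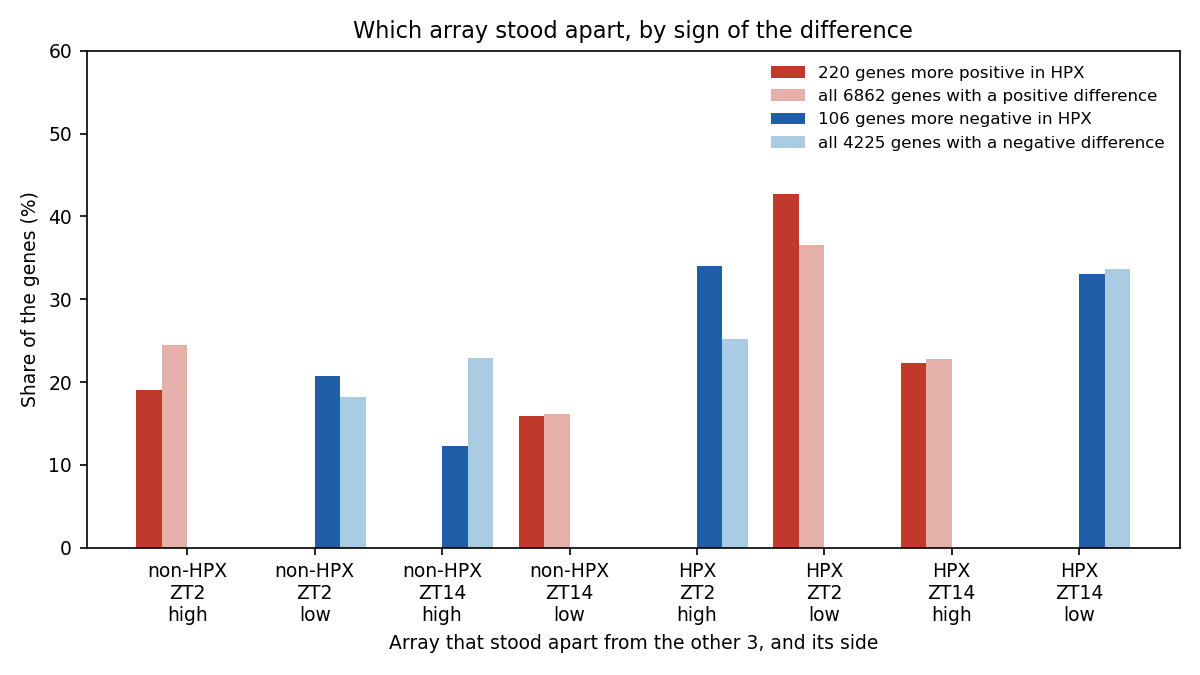
Share of genes (%) in which each array stood apart from the other 3 on the high or low side, for the 220 genes (red) and 106 genes (blue) at least 1.5-fold different and for all genes with a positive (pale red) or negative (pale blue) difference. The HPX ZT2 array on the low side holds 42.7% of the red group against 36.6% of all genes with a positive difference.

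Array medians depended on the features taken. The median log2 level over the 11090 genes was 7.28 on the HPX ZT2 array and 7.37, 7.33 and 7.34 on the non-HPX ZT2, non-HPX ZT14 and HPX ZT14 arrays. Over all 41345 probesets the HPX ZT2 array had instead the highest median, 5.52 against 5.45, 5.47 and 5.45. Of all genes, 61.9% had a positive difference. Robust multi-array averaging (RMA), with which the values were made, sets all arrays to 1 distribution and thereby hides any shift that most genes share. With 1 array, its own properties cannot be told apart from the condition.

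The size of the differences also moved with the level. Genes were split into 5 equal bins by mean level. In the lowest bin the standard deviation of the difference across genes was 0.304, and 3.65% were more positive and 2.25% more negative at 1.5-fold. In the highest bin the standard deviation was 0.228, and the shares were 0.992% and 0.541%. Of the 12 genes at 2-fold, 3 had all 4 values at the floor or above, namely Rasd1, Tgfb1i1 and Gm8465. A gene just above the floor had to be high on only 1 array to be kept, so low genes were kept partly for differing. Klf2, Cep295 and Rab13 lay just inside the floor, with differences of -0.24, -0.17 and -0.24, and Palld, Cstad and Bspry just outside, with 0.11, 0.03 and 0.52.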

How the data were processed

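Per the submitters' processing notes, the authors computed the deposited log2 values by RMA with Affymetrix Expression Console, whose version, like the build of the annotation, is not stated. This method subtracts background, equalises the arrays' distributions and summarises each probeset. Of 41345 deposited probesets, 23521 named exactly 1 gene, 1814 several and 16010 none. Single-gene probesets were averaged per gene (21098 genes with 1, 1082 with several). Symbols were looked up in RefSeq (GRCm38.p6), which held 23328 and changed 0.

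The interaction was computed per gene without a test, and the number of arrays limits its precision. The computation was tested on simulated data. Genes to name were those at 2-fold (up to 15 in each direction, apart from predicted, microRNA, small nucleolar RNA and olfactory genes), list members at 2-fold, the largest member of each list and the 2 largest of each class. Genes said to be chosen after their values were seen fall outside this rule, as do further list members given as examples. The members and lists were chosen with earlier results of these data known. Alternatives were no filter, a 75th percentile floor, a floor on the mean, median centring, cyclic loess (limma 3.58.1, R 4.3.3), other probeset rules and other folds. Python 3.11.15, numpy 2.4.6 and pandas 2.3.3 were used.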

Additional observations from a re-analysis of the deposited data

Results flagged for a closer look

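Of the 33 genes named by the rule, 25 had night changes of opposite sign in the surgical states, and in 13 of these the night changes also differed by 1.5-fold or more. With 1 array per group this is 1 pair of arrays against another, and the difference was not tested. In the 13 the difference of the night changes (HPX minus non-HPX, log2) was positive for Ghsr at 0.59, Esr1 at 0.69, Oxt at 0.96, 4933407K13Rik at 1.12, Gm20783 at 1.24 and Zfp764 at 1.28. It was negative for Cspg4 at -0.59, Gal at -0.74, Ctla2a at -1.10, Mir297b at -1.17, Klhl21 at -1.17, Gm8465 at -1.22 and Gm12238 at -1.61. Opposite signs were seen in 295 of the 326 genes at 1.5-fold or more. Choosing genes by this difference favours opposite signs where night changes are small. All 244 genes with neither a rise nor a fall had them. The share over all 11090 genes was not counted. For Oxt and Mir297b the change in 1 of the states was close to 0, at -0.05 in non-HPX for Oxt and -0.003 in HPX for Mir297b.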

How the results depend on the processing

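The counts depended on the floor and the fold. With no floor, 94 genes were more positive and 206 more negative at 2-fold, and 732 and 1118 at 1.5-fold, so the balance turned to the negative side, with 39.6% of genes at 1.5-fold positive against 67.5% with the floor. With a 75th percentile floor the counts were 1 and 0 at 2-fold and 90 and 24 at 1.5-fold. With the 2-fold call moved to 1.5-fold they were 220 and 106, and at 3-fold 0 and 1. Under cyclic loess 301 genes passed 1.5-fold, 264 of them shared with the 326, 57.8% of the 301 were positive, and all 12 genes at 2-fold were kept. Median centring and the highest-mean probeset per gene also kept all 12. No value of a named gene or list turned its sign under centring or cyclic loess apart from the microglial median, given above. Without a floor the medians of thyroid hormone response, growth hormone and IGF genes and protocadherins became 0.02, -0.03 and -0.01. Without a floor that of glucocorticoid-induced genes was -0.20. With the 75th percentile floor those of glucocorticoid-induced and microglial genes became 0.03 and -0.08, that of activity-induced genes 0.41 and that of endothelial and mural genes 0.004. Of the 578 genes with several probesets, 300 had differences of 1 sign in all of them. No paired analysis was possible because each group has 1 array, which leaves no residual degrees of freedom.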

Other observations

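Genes at 1.5-fold or more lay next to each other in 17 pairs along the RefSeq gene order of the genes above the floor, and 13 pairs differed the same way. Besides Oxt and Avp they include Tubg1, Tubg2 and Cntnap1 on chromosome 11 (0.69, 0.86 and 0.67), the gamma-tubulin genes and a gene of axon-glia contacts. Snhg14 and Ipw, RNAs of the imprinted Prader-Willi region on chromosome 7, both differed by -0.62. Snora73a and Snora73b, small nucleolar RNA copies on chromosome 4, differed by -0.63 and -0.73. Gpr19 and Cdkn1b, a cell cycle inhibitor, on chromosome 6 differed by 0.59 and 0.62. The pairs were picked after their values were seen, and neighbouring genes can share transcripts or probes.

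The 17824 probesets with no gene name or several were not used above. Of them 6323 reached the same floor, and 124 (1.96%) were more positive and 193 (3.05%) more negative at 2-fold, with a median of -0.06.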
